A study of Saccharomyces cerevisiae with 18 samples.

Results

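The galactose utilization genes of *Saccharomyces cerevisiae* were followed across 18 Affymetrix Yeast Genome S98 arrays from galactose-grown cultures. The 8 genes, *GAL1*, *GAL2*, *GAL3*, *GAL4*, *GAL7*, *GAL10*, *GAL80* and *PGM2*, were chosen by name, each through the probe set whose only gene symbol in the platform annotation was that name. Each gene had 1 probe set, so 8 of the 6504 probe sets with 1 gene name, out of 9335 probe sets in all, were described. All 8 were kept, since no filter on low signals was applied.

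The arrays came from 6 strains, with 3 biological replicates each, in a study of imbalance between the first enzymes of base excision repair. All strains derive from the haploid parent BGY111 (*MATa*, GAL+, with mutant alleles of *HIS3*, *LEU2*, *URA3*, *TRP1* and *CAN1*), and all were grown to mid-log phase in SD-*ura*+GAL medium. Wild type carried the empty vector pYES and WT/p*MAG* carried pYES-MAG, which supplies the 3-methyladenine DNA glycosylase Mag. The strain labelled Δ*apn1* held *apn1-1::HIS3*, a disruption of the gene for the AP endonuclease Apn1, with pYES, and Δ*apn1*/p*MAG* held the same allele with pYES-MAG. Δ*apn1*/p*APN1* held the allele with pYepAPN1-2A and pYES, and Δ*apn1*/p*MAG*/p*APN1* held it with pYepAPN1-2A and pYES-MAG. Every strain thus carried a vector of the pYES kind and every culture received galactose, so the uninduced level of the *GAL* genes was not measured. Whether the medium of these cultures held any other sugar is not given in the sources used here, and the methods do not say whether a strain was 1 transformed clone. The descriptions of Δ*apn1* replicates 2 and 3 name a gene other than the source name does, and the source name was followed.

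Galactose enters the cell through the permease Gal2 and is turned into glucose-1-phosphate by the enzymes of the Leloir pathway, the galactokinase Gal1, the uridyltransferase Gal7 and the epimerase Gal10, after which the phosphoglucomutase Pgm2 leads it into glycolysis. The transcription activator Gal4 binds upstream of these genes, the repressor Gal80 masks Gal4, and the sensor Gal3, once bound to galactose, takes Gal80 away. Glucose overrides this switch through the repressor Mig1. Vectors of the pYES kind place their insert behind the *GAL1* promoter, so the plasmid copy of *MAG* is driven by the same switch as the chromosomal *GAL* genes.

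The values are log2 signals from robust multi-array averaging (RMA), 1 per probe set and array, with array medians between 1.63 and 1.72. The level of 1 gene can be followed across arrays, but signals of different probe sets are not on a common scale and were not set against each other. *APN1*, the disrupted gene, read 1.14 to 1.88 in wild type and 2.81 to 3.15 in the arrays labelled Δ*apn1*, which goes against that label; where its probes lie relative to the *HIS3* insertion is not given in the sources used here, so this reading is no check of the disruption. In the arrays labelled Δ*apn1*/p*APN1* it read 7.27 to 7.96, and with p*MAG* added 4.57 to 7.48. By 1 of its 3 probe sets, *LEU2* read 4.05 to 6.73 in the strains without p*APN1* and higher on all arrays of Δ*apn1*/p*APN1*, up to 9.85, while with p*MAG* added to that strain it read 5.94 to 9.95, and *HIS3*, by 1 of 2 probe sets, read 3.25 to 4.16 in wild type and 4.31 to 5.35 in Δ*apn1*. Of the 5 listed genes of mating type a, *MFA1*, *MFA2*, *STE2* and *BAR1* had medians of 3.18 to 9.40 over their 5 probe sets, and *STE6* read 0.52 to 2.34, about the array medians. The 3 measured genes of mating type alpha had medians of 1.60 to 1.77, with a highest reading of 3.64 for *MF(ALPHA)1*. Array sets stood apart in the mean of 79 probe sets for small and ribosomal RNAs, 7 arrays with means of 2.08 to 2.52 (the high set) and 11 with means of 1.68 to 1.84 (the low set). The high set held wild type replicates 2 and 3, WT/p*MAG* replicates 1 and 3, Δ*apn1* replicates 2 and 3, and Δ*apn1*/p*MAG* replicate 1, whereas all 6 arrays of the p*APN1* strains were in the low set.

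*GAL1*, the galactokinase gene, read 8.22 to 9.69 over the 18 arrays. Without p*MAG*, it read 8.80, 8.74 and 8.80 in replicates 1, 2 and 3 of wild type, 9.13, 8.30 and 8.84 in Δ*apn1*, and 9.28, 9.03 and 9.33 in Δ*apn1*/p*APN1*. With p*MAG*, it read 8.34, 9.10 and 8.82 in WT/p*MAG*, 8.22, 9.04 and 8.96 in Δ*apn1*/p*MAG*, and 8.83, 9.69 and 9.04 for Δ*apn1*/p*MAG*/p*APN1*. The 3 wild type arrays lay within the ranges of WT/p*MAG*, Δ*apn1* and Δ*apn1*/p*MAG*, and below all 6 arrays of the p*APN1* strains. The differences from wild type were −0.03 (95% interval −0.61 to 0.55) in WT/p*MAG*, −0.02 (−0.60 to 0.56) in Δ*apn1*, −0.04 (−0.62 to 0.54) in Δ*apn1*/p*MAG*, 0.44 (−0.15 to 1.02) for Δ*apn1*/p*APN1*, and 0.41 (−0.17 to 0.99) where p*MAG* was added to that strain. None of these differences passed a test, and differences smaller than these intervals could not be resolved with 3 arrays per strain. For p*APN1* in the *apn1* background, the mean difference was 0.45 (95% interval 0.04 to 0.86), a 1.37-fold higher signal. Its unadjusted p was 0.0341 and its adjusted p 0.867 by limma.

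**Figure D1:**
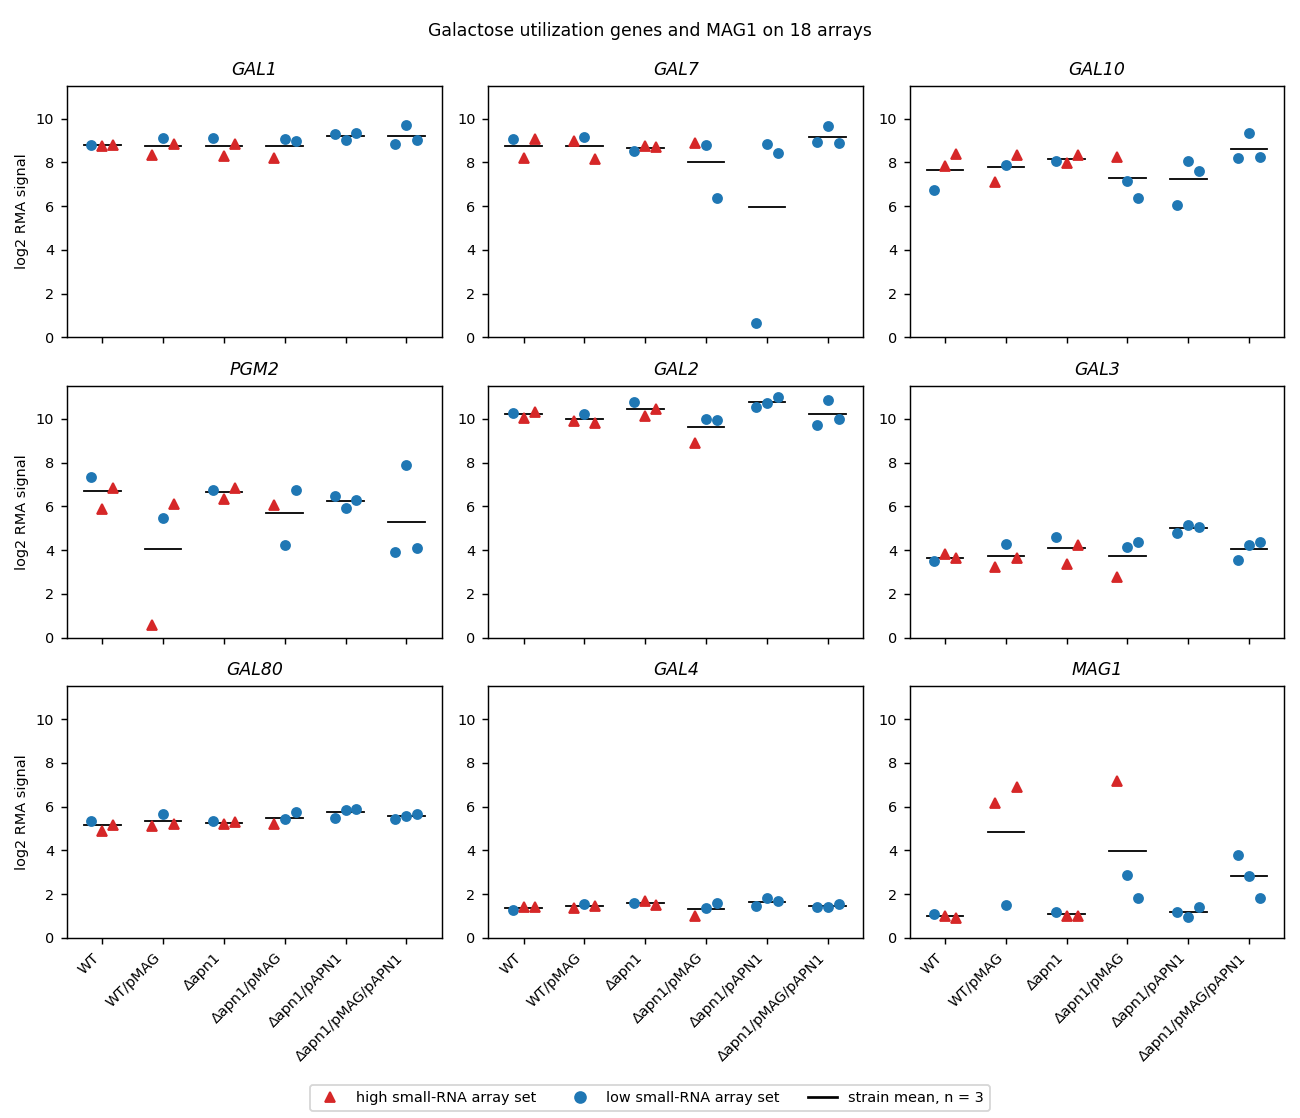
Signal of the 8 galactose utilization genes and of *MAG1* (vertical axis, log2 RMA signal) on each array, by strain (horizontal axis, replicates 1 to 3 from left to right within a strain). Triangles are arrays of the high small-RNA set, circles arrays of the low set and lines the means of 3 arrays; *GAL7* at 0.67 in Δ*apn1*/p*APN1* and *PGM2* at 0.57 in WT/p*MAG* are single arrays, and *MAG1* is high on 3 arrays only.

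*GAL7*, the uridyltransferase gene, lies beside *GAL10* on chromosome II, and *GAL10*, the epimerase gene, faces *GAL1* across the promoter they share. Without p*MAG*, *GAL7* read 9.05, 8.18 and 9.07 in wild type, 8.50, 8.74 and 8.72 in Δ*apn1*, and 0.67, 8.85 and 8.41 in Δ*apn1*/p*APN1*. With p*MAG*, it read 8.96, 9.16 and 8.14 in WT/p*MAG*, 8.88, 8.79 and 6.36 in Δ*apn1*/p*MAG*, and 8.93, 9.64 and 8.86 for Δ*apn1*/p*MAG*/p*APN1*. On 16 of the 18 arrays *GAL7* lay between 8.14 and 9.64, and the exceptions were Δ*apn1*/p*APN1* replicate 1 and Δ*apn1*/p*MAG* replicate 3. The first of these set the difference of Δ*apn1*/p*APN1* from wild type, −2.79 (95% interval −5.92 to 0.34, adjusted p = 0.797 by limma), which was −0.14 without that array. Without replicate 2 or replicate 3 of the same strain, the difference was −4.23 and −4.01 and passed the fold-and-p rule, which takes from the methods a size of 1.5-fold or more with p below 0.05 before adjustment. In the other 4 strains the *GAL7* difference was −0.01 (−3.14 to 3.11) in WT/p*MAG*, −0.12 (−3.24 to 3.01) in Δ*apn1*, −0.76 (−3.88 to 2.37) in Δ*apn1*/p*MAG*, and 0.38 (−2.75 to 3.50) for the strain with both p*MAG* and p*APN1*.

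*GAL10* was more spread than *GAL1* within the strains. It read 6.72, 7.82 and 8.39 in wild type, 8.07, 7.98 and 8.34 in Δ*apn1*, and 6.04, 8.05 and 7.60 in Δ*apn1*/p*APN1*. It read 7.10, 7.87 and 8.35 in WT/p*MAG*, 8.25, 7.16 and 6.37 in Δ*apn1*/p*MAG*, and 8.18, 9.33 and 8.26 for Δ*apn1*/p*MAG*/p*APN1*. Every strain overlapped wild type. The differences were 0.13 (−1.09 to 1.35) in WT/p*MAG*, 0.49 (−0.73 to 1.71) in Δ*apn1*, −0.38 (−1.60 to 0.84) in Δ*apn1*/p*MAG*, −0.41 (−1.63 to 0.80) for Δ*apn1*/p*APN1*, and 0.95 (−0.27 to 2.16) where p*MAG* was added to that strain. The last of these passed the fold-and-p rule with the array set as a term, where it was 1.41 (unadjusted p = 0.0324, adjusted p = 0.875 by limma), in the low set alone, where it was 1.87 with 1 wild type array, and without the 3 arrays with many low readings. The residual SD of *GAL1*, the spread of arrays about their strain means, was 0.36, against 0.77 for *GAL10* and 2.00 for *GAL7*, and 75.9%, 96.3% and 99.95% of the 6504 probe sets had a smaller one.

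*GAL2*, the permease gene, had a lower mean in each p*MAG* strain than in the matching strain without it, and the mean of these 3 differences passed neither the adjusted p nor the fold-and-p rule. It read 10.25, 10.06 and 10.29 in wild type against 9.90, 10.24 and 9.81 in WT/p*MAG*. It read 10.76, 10.11 and 10.44 in Δ*apn1* against 8.88, 9.98 and 9.95 in Δ*apn1*/p*MAG*. It read 10.56, 10.70 and 11.01 in Δ*apn1*/p*APN1* against 9.74, 10.87 and 9.99 for Δ*apn1*/p*MAG*/p*APN1*. All 3 arrays of Δ*apn1*/p*MAG* were below all 3 of Δ*apn1*, and the other pairs of strains overlapped. The mean of the 3 differences was −0.54 (SE 0.18, 95% interval −0.91 to −0.16), with an unadjusted p of 0.00826 and an adjusted p of 0.159 by limma, and with the array set as a term it was −0.59 with an unadjusted p of 0.00141 and an adjusted p of 0.0557, which passed the fold-and-p rule. Its size, 1.45-fold, was short of 1.5-fold, and it also passed that rule without Δ*apn1* replicate 2 (−0.59), Δ*apn1*/p*MAG* replicate 2 (−0.60) or 3 (−0.60), or Δ*apn1*/p*MAG*/p*APN1* replicate 2 (−0.65). Without any other single array it did not pass. Among those arrays is Δ*apn1*/p*MAG* replicate 1, which held the lowest *GAL2* reading.

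*PGM2*, which encodes the major phosphoglucomutase, was the most scattered member after *GAL7*. Without p*MAG*, it read 7.33, 5.89 and 6.84 in wild type, 6.76, 6.32 and 6.83 in Δ*apn1*, and 6.49, 5.93 and 6.27 in Δ*apn1*/p*APN1*. With p*MAG*, it read 0.57, 5.45 and 6.10 in WT/p*MAG*, 6.08, 4.25 and 6.75 in Δ*apn1*/p*MAG*, and 3.92, 7.89 and 4.09 for Δ*apn1*/p*MAG*/p*APN1*. The 9 arrays without p*MAG* lay between 5.89 and 7.33, and the 9 with it ran from 0.57 to 7.89. The difference of WT/p*MAG* from wild type was −2.65 (SE 1.22, unadjusted p = 0.0466, adjusted p = 0.471 by limma), which passed the fold-and-p rule, and it was −0.91 and did not pass without WT/p*MAG* replicate 1. The mean difference with p*MAG* was −1.51 (SE 0.70, adjusted p = 0.326), and −0.93 without that array. The call in WT/p*MAG* was also lost with the residual variance of *PGM2* alone, as in the methods, with the replicate number as a block and with the array set as a block. The unadjusted p there was 0.0503 to 0.0746, by an ordinary t test for the residual variance alone and by limma for the blocks. The mean difference lost its call with the residual variance alone (unadjusted p = 0.0781 by an ordinary t test) and with the replicate block (unadjusted p = 0.0586 by limma). These calls were lost on leaving out 10 and 13 of the 18 arrays in turn. The first was lost without wild type replicate 1 or 3, WT/p*MAG* replicate 1, Δ*apn1*/p*MAG* replicate 1 or any array of Δ*apn1* or Δ*apn1*/p*APN1*, and the second was kept only without wild type replicate 2, WT/p*MAG* replicate 2 or 3, Δ*apn1*/p*MAG* replicate 3 or Δ*apn1*/p*MAG*/p*APN1* replicate 2.

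Among the regulators, *GAL3*, which encodes the galactose sensor, was read highest in Δ*apn1*/p*APN1*. Without p*MAG*, it read 3.49, 3.82 and 3.65 in wild type, 4.60, 3.39 and 4.26 in Δ*apn1*, and 4.79, 5.17 and 5.06 in Δ*apn1*/p*APN1*. With p*MAG*, it read 3.25, 4.28 and 3.64 in WT/p*MAG*, 2.75, 4.12 and 4.37 in Δ*apn1*/p*MAG*, and 3.53, 4.23 and 4.39 for Δ*apn1*/p*MAG*/p*APN1*. The 3 arrays of Δ*apn1*/p*APN1* were above all other arrays. *GAL3* was 2.55-fold higher there than in wild type, a difference of 1.35 (SE 0.40, 95% interval 0.50 to 2.20, unadjusted p = 0.00410, adjusted p = 0.446 by limma), which passed the fold-and-p rule and did so on leaving out each of the 18 arrays in turn. Its adjusted p was 0.0400 where only these 6 arrays were fitted, and 0.936 with the array set as a term, where the difference was 0.87.

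*GAL80*, which encodes the repressor, had the tightest readings of the members with a clear signal. It read 5.33, 4.91 and 5.17 in wild type, 5.32, 5.19 and 5.29 in Δ*apn1*, and 5.48, 5.83 and 5.90 in Δ*apn1*/p*APN1*. It read 5.11, 5.66 and 5.20 in WT/p*MAG*, 5.20, 5.41 and 5.76 in Δ*apn1*/p*MAG*, and 5.45, 5.58 and 5.68 for Δ*apn1*/p*MAG*/p*APN1*. The arrays of both p*APN1* strains were above those of wild type. In Δ*apn1*/p*APN1* the difference was 0.60 (SE 0.18, 95% interval 0.23 to 0.98, adjusted p = 0.446 by limma), a 1.52-fold higher signal that passed the fold-and-p rule. It fell short of 1.5-fold or of p without wild type replicate 2, where it was 0.49, without Δ*apn1*/p*APN1* replicate 2, where it was 0.56, without Δ*apn1*/p*APN1* replicate 3, where it was 0.52, and with the array set as a term, where it was 0.39.

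*GAL4*, which encodes the activator, read 1.01 to 1.81 on all arrays, at or about the array medians, where differences are compressed. It read 1.26, 1.43 and 1.39 in wild type and 1.45, 1.81 and 1.68 in Δ*apn1*/p*APN1*. Its differences from wild type ran from −0.04 in Δ*apn1*/p*MAG* to 0.29 in Δ*apn1*/p*APN1*, and none passed a test. At this signal, presence of the transcript was not told apart from the background of the array.

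To ask which members differed among strains, 1 limma fit was made over all 18 arrays, with p adjusted over the 6504 probe sets. At an adjusted p under 0.05, 0 of the 8 members differed in the F test over the 6 strains, where 0.4% of all probe sets did. Before adjustment 3 of 8 had p under 0.05 in that test, *GAL2* (0.0335), *GAL3* (0.0373) and *GAL80* (0.0422), against 9.56% of all probe sets. No member passed at an adjusted p in any of the 8 comparisons of strains or plasmids, where the share of all probe sets that did was 0.0923% for WT/p*MAG*, 0% for Δ*apn1*, 0.108% for Δ*apn1*/p*MAG*, 0.0154% for each of the p*APN1* strains, 1.28% and 0.0615% for the mean differences with p*MAG* and with p*APN1*, and 0% for the interaction.

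**Figure D2:**
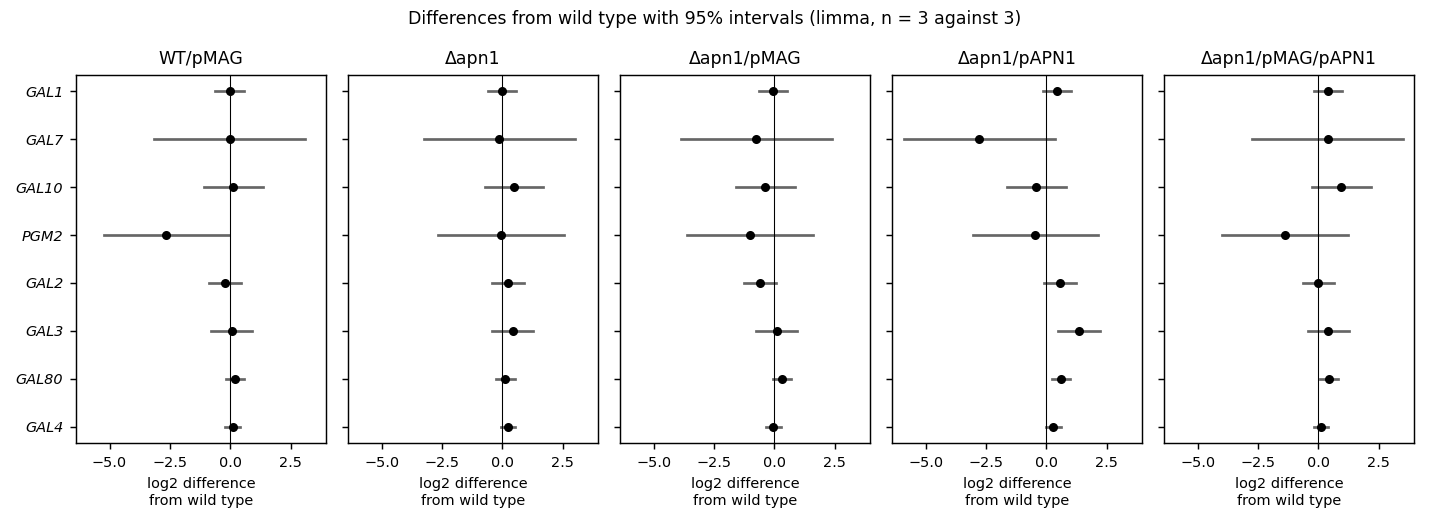
Differences of the 8 genes from wild type (horizontal axis, log2) in each of the 5 other strains, with points for the estimates and bars for the 95% intervals of the limma fit. The intervals of *GAL7* and *PGM2* are the widest, and *GAL3* and *GAL80* in Δ*apn1*/p*APN1* lie to the right of 0.

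Under the fold-and-p rule, 1 of 8 members passed in WT/p*MAG* (*PGM2*, lower), where 6% of all probe sets passed. In Δ*apn1*/p*APN1* 2 of 8 passed, *GAL3* and *GAL80*, both higher, where 2.51% of all probe sets passed as higher and 3.31% in either direction. No member passed in the other 3 strains, Δ*apn1*, Δ*apn1*/p*MAG* and the strain with both plasmid genes, with backgrounds of 0.431%, 3.38% and 3.4%. Of the mean differences, that with p*MAG* passed for *PGM2* (background 3.47%), and that with p*APN1* in the *apn1* background passed for *GAL3*, at 0.61 with an adjusted p of 0.867 (background 0.846%). The call for *GAL3* was lost on leaving out 11 of the 18 arrays in turn, with values from 0.36 to 0.77, and was kept only without WT/p*MAG* replicate 1 or 2, Δ*apn1*/p*MAG* replicate 2 or 3, or replicate 1 of Δ*apn1*, Δ*apn1*/p*APN1* or Δ*apn1*/p*MAG*/p*APN1*. The difference between the p*MAG* effects in Δ*apn1* and in wild type passed for no member (background 1.83%). The median difference of the 8 members was 0.36 in Δ*apn1*/p*APN1*, and 0.39 once p*MAG* was added, where the median of all probe sets was 0.03 in both. It was −0.07 for the mean difference with p*MAG*, where that of all probe sets was 0.00. The comparisons with wild type share its 3 arrays.

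The array sets were compared within strains, and no member passed that test. There, the difference of the high set from the low set was −0.47 for *GAL1* (adjusted p = 0.0944 by limma), −0.51 for *GAL2* (0.112), −0.72 for *GAL3* (0.0830) and −0.31 for *GAL80* (0.0837), while it was 0.70 for *GAL10* and 0.12 for *GAL7*. At an adjusted p, 0 of the 8 members passed where 7.84% of all probe sets did, and the median of the members was −0.39 against −0.05 for all probe sets. Since all 6 arrays of the p*APN1* strains belong to the low set, the set and p*APN1* are partly confounded, and the part of the set in the higher *GAL3* and *GAL80* signals of Δ*apn1*/p*APN1* was not tested beyond the values with the set as a term. Within the low set alone, which leaves 1 wild type array, the differences were 1.52 for *GAL3* and 0.41 for *GAL80*.

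Some of the members moved together from array to array. Of the 28 pairs, over 18 arrays that share strains and array sets, *GAL1* followed *GAL3* with r = 0.78 (Spearman rho 0.81) and *GAL2* with r = 0.74 (rho 0.64), and *GAL2* followed *GAL3* with r = 0.79 (rho 0.66). *GAL80* followed *GAL3* with r = 0.73 and *GAL1* with r = 0.63. *GAL4*, whose signal was not told apart from background, gave values as high as some of these. It correlated with *GAL3* at 0.75 (rho 0.71), with *GAL2* at 0.66 (rho 0.48) and with *GAL1* at 0.38 (rho 0.41). With the strain means removed, *GAL1* correlated with *GAL2* at 0.88 and with *GAL3* at 0.82. Without the 2 arrays farthest from the median of *GAL1*, these values, with strain means kept, were 0.57 and 0.84. *GAL2* and *GAL3* correlated at 0.63 without the 2 arrays farthest from the median of *GAL2*. Δ*apn1*/p*MAG* replicate 1 held the lowest readings of *GAL1*, *GAL2* and *GAL3*. It was among the 2 arrays left out in each case, and its part apart from the other array was not tested.

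**Figure D3:**
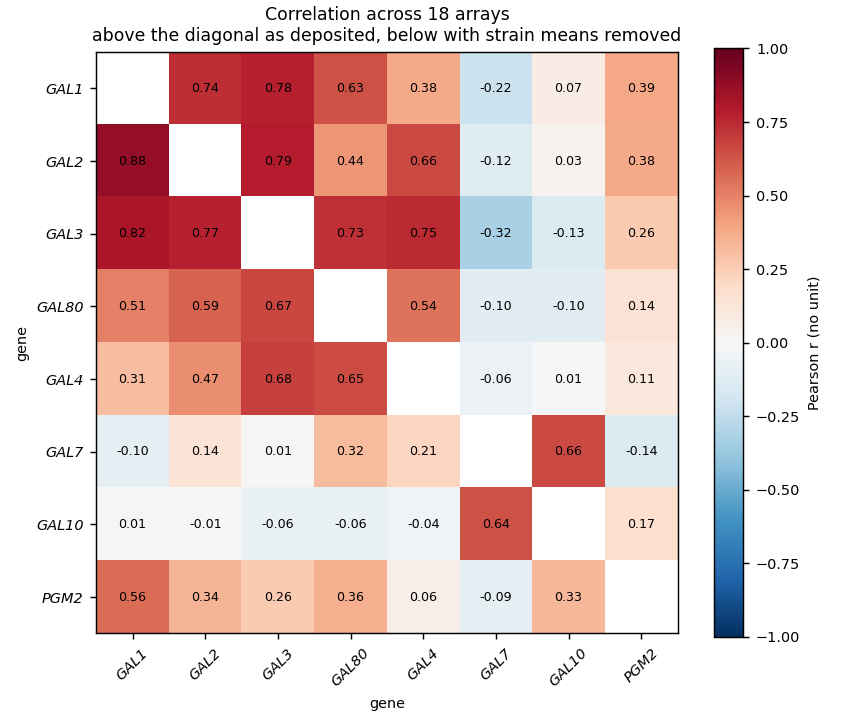
Pearson correlation between the signals of each pair of genes over 18 arrays, with the deposited values above the diagonal and values with strain means removed below it (colour scale from −1 to 1, no unit). *GAL1*, *GAL2* and *GAL3* form a block of high correlations, while over all arrays *GAL7* and *GAL10* correlate with each other at 0.66 and with these genes at −0.32 to 0.07. *GAL4*, not told apart from background, correlates with *GAL3* at 0.75, with *GAL2* at 0.66 and with *GAL1* at 0.38.

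The relations of *GAL1* with *GAL2* and *GAL3* were also seen within each array set. *GAL1* and *GAL3* correlated at 0.86 over the 7 arrays of the high set and 0.45 over the 11 of the low set, and *GAL1* and *GAL2* at 0.63 and 0.72. By contrast, *GAL1* and *GAL80* correlated at −0.03 and 0.23 within the sets, and *GAL3* and *GAL80* at 0.01 and 0.64. The pooled relation of *GAL80* with *GAL1* was thus not found within the sets.

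Against its chromosomal neighbours *GAL1* gave r = −0.22 for *GAL7* and 0.07 for *GAL10* over all arrays. Within the sets the values against *GAL10* were higher, 0.41 in the low set and 0.47 in the high set, and those against *GAL7* were −0.12 and −0.44. *GAL7* and *GAL10* correlated at 0.66 (rho 0.36), which was 0.22 without the 2 arrays farthest from the median of *GAL7*, so this relation rests on those arrays. These correlations are given as descriptions of 18 arrays.

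The plasmid copy of *MAG* lies behind a galactose promoter, and the *MAG1* signal was set beside those of the *GAL* genes. Whether the *MAG1* signal follows the activity of that promoter was not tested. *MAG1* read 0.89 to 1.41 on the 9 arrays without p*MAG*. It read 6.14, 1.48 and 6.91 in WT/p*MAG*, 7.17, 2.88 and 1.82 in Δ*apn1*/p*MAG*, and 3.80, 2.83 and 1.82 for Δ*apn1*/p*MAG*/p*APN1*. All 9 arrays with p*MAG* were above all 9 without it, but only 3 were above 6. Those 3 arrays, WT/p*MAG* replicates 1 and 3 and Δ*apn1*/p*MAG* replicate 1, are the arrays with p*MAG* that belong to the high small-RNA set.

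High *MAG1* did not go with high *GAL1*. On the 3 arrays with high *MAG1*, *GAL1* read 8.22 to 8.82, and on the other 6 arrays with p*MAG* 8.83 to 9.69. For *GAL3* the ranges were 2.75 to 3.64 and 3.53 to 4.39, and for *GAL80* 5.11 to 5.20 and 5.41 to 5.76. *GAL1* and *GAL80* thus did not overlap, *GAL1* by a narrow margin, and *GAL3* overlapped slightly. *GAL7* read 8.14 to 8.96 on the 3 arrays with high *MAG1* and 6.36 to 9.64 on the other 6. In the same order *GAL10* read 7.10 to 8.35 and 6.37 to 9.33, and *GAL2* 8.88 to 9.90 and 9.74 to 10.87. *PGM2* read 0.57 to 6.10 and 3.92 to 7.89, and *GAL4* 1.01 to 1.44 and 1.35 to 1.61, so all of these overlapped. The share of all probe sets without overlap between the 2 groups of arrays was not computed. Since the arrays fall into 2 separate groups that coincide with the array sets, *MAG1* and array set cannot be told apart here. No correlation value over all 9 is given, only counts of them among the alternatives below.

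**Figure D4:**
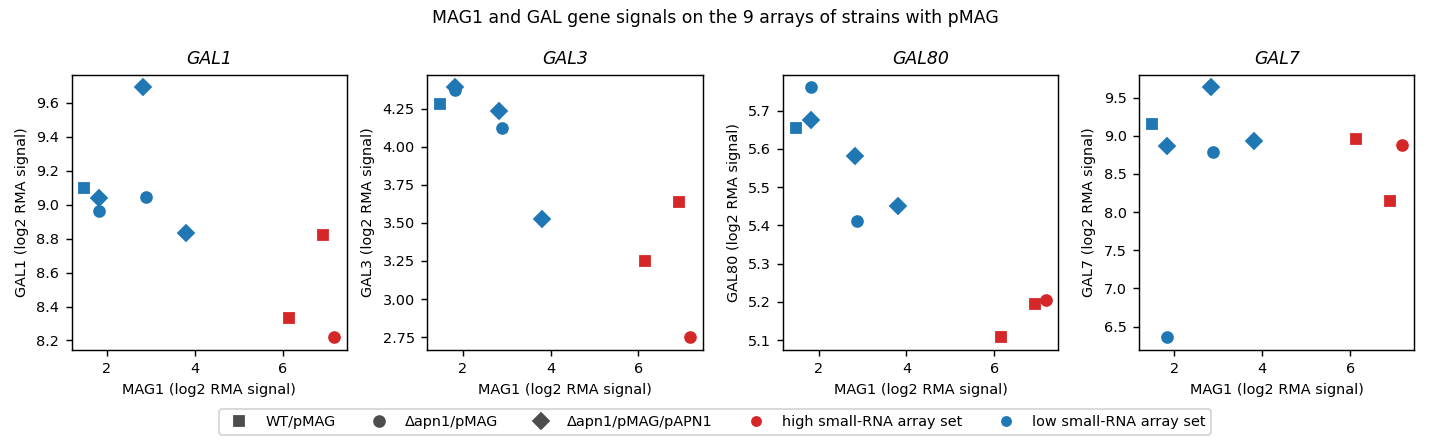
*GAL1*, *GAL3*, *GAL80* and *GAL7* (vertical axes, log2 RMA signal) against *MAG1* (horizontal axis, log2 RMA signal) on the 9 arrays of strains with p*MAG*, with the strain by marker and the array set by colour. The 3 arrays with *MAG1* at 6.14 to 7.17 are all of the high small-RNA set and hold the 3 lowest *GAL1* and *GAL80* signals.

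Within the 6 arrays of the low set, *MAG1* ran from 1.48 to 3.80, and its relation to the members was tested by an exact two-sided permutation test, with p adjusted over the 8 relations. *GAL3* gave r = −0.87 (p = 0.0125, adjusted 0.1; rho −0.83, p = 0.0583), *GAL80* r = −0.82 (p = 0.0444, adjusted 0.133; rho −0.71, p = 0.136) and *GAL4* r = −0.87 (p = 0.05, adjusted 0.133; rho −0.77, p = 0.103). Of these, *GAL4* read only 1.35 to 1.61 on the 6 arrays, where it was not told apart from background. *MAG1* itself was near background on part of them. It read 1.48 in WT/p*MAG* replicate 2, and 1.82 in replicate 3 of Δ*apn1*/p*MAG* and of Δ*apn1*/p*MAG*/p*APN1*. These values are about the array medians, where differences are compressed, and the highest reading without p*MAG* was 1.41. Leaving out the 2 of the 6 arrays farthest from the median of *MAG1* left few arrays. It gave r of −0.95 for *GAL3*, −0.87 for *GAL80* and −0.97 for *GAL4*. *GAL1* gave −0.02 and *GAL2* −0.13, which turned to 0.59 and 0.55 without those 2 arrays, and *GAL7* and *GAL10* gave 0.32 and 0.30. None of the 8 relations passed after adjustment.

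*URA3*, the selection marker of the pYES vectors, was read on every array. It read 6.20, 7.37 and 7.59 in wild type, 4.62, 7.68 and 7.27 for Δ*apn1*, and 6.73, 5.94 and 5.18 for Δ*apn1*/p*APN1*. With p*MAG* it read 7.07, 5.73 and 6.05 for WT/p*MAG*, 4.48, 5.13 and 5.22 for Δ*apn1*/p*MAG*, and 4.98, 4.90 and 5.42 for Δ*apn1*/p*MAG*/p*APN1*. The arrays of both *apn1* strains with p*MAG* were below all 3 of wild type, and Δ*apn1* replicate 1, without p*MAG*, was as low. For Δ*apn1*/p*MAG* the difference passed the fold-and-p rule (−2.11, SE 0.65, adjusted p = 0.421 by limma), and the array with the highest *MAG1* signal, 7.17, had the lowest *URA3* signal, 4.48. Within strains, *URA3* was 1.07 higher in the high set (adjusted p = 0.118).

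The single low readings of *GAL7* and *PGM2* were set beside those of all other probe sets, a check chosen after these values were seen. Of the 6504 probe sets, 58 read more than 4 below the median of the other 17 arrays on 1 array or more. Of these 60 readings, 57 came from 3 arrays, 19 from WT/p*MAG* replicate 1, 14 from Δ*apn1*/p*MAG* replicate 1 and 24 from Δ*apn1*/p*APN1* replicate 1. The difference of *GAL7* from the other arrays was −8.18 on the last of these and that of *PGM2* was −5.70 on the first.

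**Figure D5:**
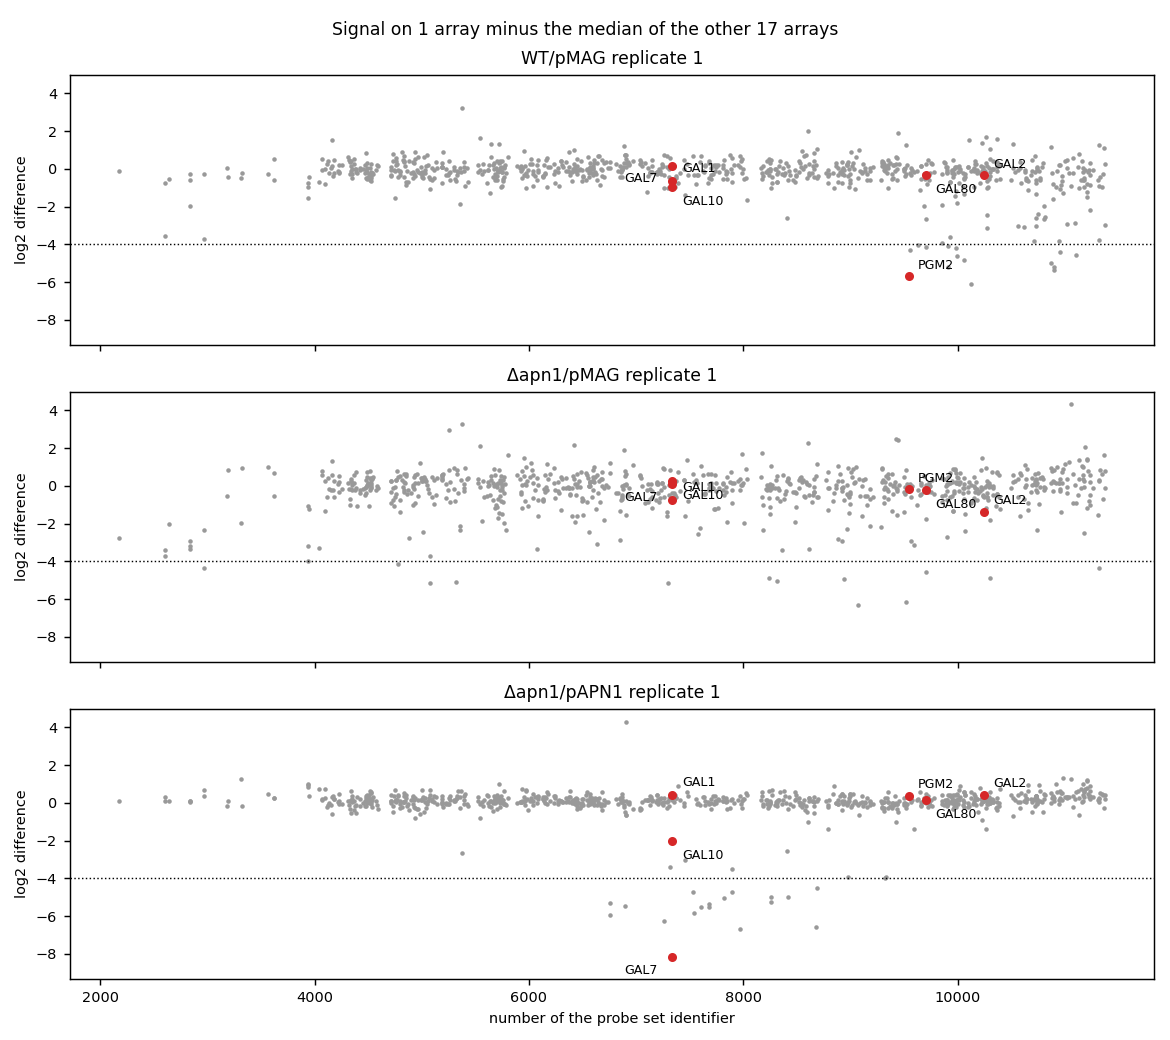
Signal on 1 array minus the median of the other 17 (vertical axis, log2) against the number in the probe set identifier (horizontal axis), for the 838 probe sets with a median above 5, on the 3 arrays with the most low readings. Red points are the galactose utilization genes and the dotted line marks −4; the low readings are gathered in 1 stretch of numbers in the top and bottom panels and scattered in the middle one.

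The 24 low readings of Δ*apn1*/p*APN1* replicate 1 all had probe set numbers from 6688 to 8691, a stretch that holds 23.8% of the 6504 probe sets. *GAL7*, *GAL10* and *GAL1* are numbers 7331, 7332 and 7333, and on this array their differences from the other arrays were −8.18, −2.01 and 0.44. The 19 low readings of WT/p*MAG* replicate 1 had numbers from 9402 to 11105, which hold 21.4% of the probe sets, and *PGM2* is number 9547. The 14 on Δ*apn1*/p*MAG* replicate 1 ran from 2163 to 11319, and there the 5′ minus the 3′ signal of *ACT1* was −7.78, where the other arrays gave −1.82 to −0.65. Where these probes lie on the array is not given in the files, and the part of either feature in the low readings was not tested.

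Other genes under the same control were read through lists of known targets. Of the other genes bound by Gal4, *GCY1*, *PCL10*, *MTH1* and *FUR4*, all 4 were measured and none passed at an adjusted p in the 8 comparisons. Under the fold-and-p rule only *MTH1*, which encodes a regulator of hexose transporter genes, passed, in Δ*apn1*/p*MAG* (difference 0.60, adjusted p = 0.605 by limma), where 3.38% of all probe sets did. It did not pass without wild type replicate 2 (0.57) or Δ*apn1*/p*MAG* replicate 2 (0.56). It read 4.01, 3.87 and 3.93 in wild type and 4.46, 4.61 and 4.53 in Δ*apn1*/p*MAG*, with no overlap. *FUR4*, the uracil permease gene next to *GAL1*, read 3.74 to 5.52.

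Of 9 listed genes of galactose and glucose-1-phosphate metabolism and of *GAL* gene control, 7 were measured. In WT/p*MAG*, where 6% of all probe sets passed the fold-and-p rule, 2 of them did, both lower, *PGM1*, the minor phosphoglucomutase gene (−0.63, adjusted p = 0.359 by limma), and *UGP1*, which encodes UDP-glucose pyrophosphorylase (−1.73, adjusted p = 0.318). Each rests on 1 array, since *UGP1* was −0.81 without WT/p*MAG* replicate 1 and *PGM1* −0.29 without WT/p*MAG* replicate 3, and neither then passed. For the mean difference with p*MAG*, *UGP1* also passed (−0.83, adjusted p = 0.252), with −0.52 and no call without WT/p*MAG* replicate 1, and in the other 6 comparisons no gene of this list did. In wild type *UGP1* read 8.64, 7.82 and 7.64, and with p*MAG* 4.46, 7.12 and 7.32, with its lowest reading on the array where *PGM2* was lowest. Its probe set number, 10617, lies in the stretch of low readings of that array. In wild type *PGM1* read 4.58, 4.49 and 4.47, and with p*MAG* 4.41, 4.05 and 3.20.

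The glucose-repressed genes, 20 genes with 22 probe sets, were read as the counterpart of the galactose switch. For the mean difference with p*MAG*, *FBP1*, the gluconeogenic fructose-1,6-bisphosphatase gene, was lower, with a difference of −0.78 (adjusted p = 0.0428 by limma) and *ICL2*, of the isocitrate lyase family, was higher by 0.37 (adjusted p = 0.0245), both at signals of 1.20 to 2.82, near the array medians. The adjusted p was above 0.05 on leaving out 13 of the 18 arrays in turn for *FBP1*, with values of −0.87 to −0.66, and 6 for *ICL2*, with values of 0.34 to 0.41. Under the fold-and-p rule 5 of the 22 probe sets were lower and 0 higher, where 1.58% of all probe sets were lower. They were *FBP1*, *ADH2* (−0.77), *CYC1* (−0.64) and 2 probe sets of *SUC2*, the invertase gene (−0.85 and −0.89), of which *CYC1* lost its call on leaving out 12 arrays in turn and the second *SUC2* probe set on leaving out 1. The median of the 22 was −0.10 against 0.00 for all probe sets. Of the 2 glucose-induced transporter genes, *HXT3* was higher by 0.59 (adjusted p = 0.111) and passed the same rule, a call lost on leaving out 6 arrays in turn, and *HXT1* did not. Of the 20 probe sets for the machinery of glucose repression, which holds *MIG1*, *SNF1*, *TUP1* and their partners, 0 passed for the mean difference with p*MAG* under either rule, and the smallest p was that of *SNF4* (−0.27, unadjusted p = 0.00269, adjusted p = 0.0915).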

How the data were processed

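Total RNA from 18 cultures was hybridized to S98 yeast arrays, each array with RNA of 1 culture. The authors processed the scanned images with RMA (version not given in the sources used here), and the deposited series matrix holds log2 signals, already background-corrected, quantile-normalized and summarized per probe set, so there is no sequencing depth, and precision is limited by the number of arrays. Compression at low signals is a property of RMA. Samples were grouped by source name. Control probe sets (60), probe sets with several names (328) and unnamed ones (2443) were left out. The 6504 others were fitted with limma 3.58.1 in R 4.3.3, 1 mean per strain over 18 arrays (12 residual degrees of freedom, 2.89 prior), two-sided, with Benjamini-Hochberg adjustment. The fit was tested on simulated data. The fold-and-p rule (1.5-fold or more, p below 0.05 before adjustment) was applied beside it. Every member was named with its values, and differences where they passed a threshold. Where *MAG1* was related to the members, exact two-sided permutation over arrays was used (Python 3.11.15, numpy 2.4.6). Array sets were split at the largest gap in the mean of 79 small and ribosomal RNA probe sets. The members, lists and alternatives were chosen with earlier results of these data known. Gene neighbours are from RefSeq assembly R64. Replicate numbers are from the labels, and same-numbered arrays of wild type and Δ*apn1* deviated together (r = 0.37, 0.33 and 0.37), with values from −0.33 to 0.21 for the other strains against wild type. Wild type and Δ*apn1* alone both have replicate 1 in the low set and replicates 2 and 3 in the high set. Replicate number and array set cannot be told apart in that comparison.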

Additional observations from a re-analysis of the deposited data

How the results depend on the processing

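No member changed direction among its called differences under any alternative, and 214 of 250 counts under alternatives other than leaving out 1 array stayed within 1.5 times the value given. These take in the counts at an adjusted p, where no member passed in the main fit and 2 counts changed. Fold-and-p counts moved more. With leaving out 1 array included, that of WT/p*MAG* stayed in 15 of 33 alternatives. It stayed in 11 of 32 for the mean difference with p*MAG*, 15 of 32 for that with p*APN1* and 29 of 32 for Δ*apn1*/p*APN1*. Under the fold-and-p rule, the count for WT/p*MAG* of 1 became 0 with the methods' test (the residual variance of each probe set), with only the groups compared, with the replicate number as a block, with the array set as a block, in each array set alone, without Δ*apn1*/p*MAG* replicate 1 and Δ*apn1*/p*MAG*/p*APN1* replicate 1 together, and without the 3 arrays with many low readings, an alternative chosen after seeing the data. For the mean difference with p*MAG* the count of 1 became 0 with the methods' test, the replicate block, the low set, repeated quantile normalization, all probe sets other than controls and without those 2 or 3 arrays, and 2, *PGM2* and *GAL2*, with the array set as a block. For p*APN1* the count of 1 became 0 with the methods' test, only the groups compared, the array set as a block, the low set, array weights and without the 2 arrays, and without the 3 arrays it was 1, with *GAL10* in place of *GAL3*. In Δ*apn1*/p*APN1* the count of 2 became 1 with the array set as a block and in the low set, and the count at an adjusted p of 0 became 1 with only the groups compared. In Δ*apn1*/p*MAG* the count of 0 became 1 with the array set as a block and 2 in the high set, where 1 passed at an adjusted p (*GAL2*, −1.29, with 1 array against 2). For the strain with both plasmid genes it became 1 with the array set as a block, in the low set and without the 3 arrays (*GAL10*) and without the 2 arrays (*GAL1*), 1 in Δ*apn1* in the low set, and 1 for the interaction in the high set and without the 3 arrays. The cause was not tested. Over all 9 arrays with p*MAG*, *MAG1* and array set cannot be told apart. There the count of correlations with *MAG1* at an adjusted p under 0.05 was 3 of 8 by Pearson's r in the exact permutation test. By Spearman's rho it was 5 of 8, and within the low set it was 0. The share of all probe sets with such a correlation was not computed, so these counts have no background beside them. Between the array sets, 7.84% of all probe sets differed at an adjusted p by limma.

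On leaving out 1 array in turn, the counts under the fold-and-p rule ran from 0 to 1 in WT/p*MAG*, Δ*apn1*/p*MAG*, Δ*apn1*/p*MAG*/p*APN1* and for p*APN1*, from 1 to 2 in Δ*apn1*/p*APN1* and from 0 to 2 for p*MAG*, and the count of such Pearson correlations with *MAG1* from 2 to 5, the highest without Δ*apn1*/p*MAG*/p*APN1* replicate 2. In that strain without replicate 2, *PGM2* passed at −2.68, and in Δ*apn1*/p*MAG* *GAL2* passed at −0.78 and −0.77 without replicate 2 or 3 and at −0.59 without replicate 2 of the strain with both plasmid genes. The replicate block changed no other count. All 6 p*APN1* arrays are in the low set, which limits what a block for the set can separate.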

Other observations

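The genes most like the mean profile of *GAL1*, *GAL7* and *GAL10* over the 18 arrays were *ATG29* (r = 0.80), *QCR2* (0.74), *TEC1* (0.74), *STE50* (0.73), *SVL3* (0.71), *PIN4* (0.71), *ALG3* (0.69) and *PTC6* (0.67). Their probe set numbers all lay from 6819 to 7904, a stretch that holds 12.7% of the 6504 probe sets and the numbers of *GAL1*, *GAL7* and *GAL10* themselves, 7331 to 7333. Without Δ*apn1*/p*APN1* replicate 1, the 8 most alike took in *MET17* and *AIM18*, whose numbers lie outside that stretch. Among the least like were *JEM1* (−0.66), *DLS1* (−0.68), *KRE28* (−0.69) and *AIM22* (−0.70). *GAL1*, *GAL7* and *GAL10* are themselves part of the profile, which fixes much of their own likeness to it. In this order *GAL10* was number 1, *GAL7* number 6 and *GAL1* number 171, which was number 23 without Δ*apn1*/p*APN1* replicate 1. Against *GAL1* alone, *COR1* (0.84), *SED1* (0.81), *MSF1* (0.80) and *RSM24* (0.80) were the most alike, *GAL3* was number 7 and *GAL2* number 14, while *GAL10* was number 3125 and *GAL7* number 4861 of 6504.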
